A study of Mus musculus with 2 samples.

Results

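Type 2 conventional dendritic cells (cDC2) of the mouse dorsal root ganglion (DRG) were examined by single-cell RNA sequencing. The cells were chosen by their measured counts of a few genes. A cell was counted as a cDC2 when it held at least 3 unique molecular identifiers (UMIs, counted RNA molecules) of *Cd209a*, less than 0.5% of its UMIs from *C1qa*, *C1qb* and *C1qc* together, at most 1 UMI of *Xcr1* and *Clec9a* together, and less than 2% of its UMIs from *S100a8* and *S100a9*. This rule found 51 cells and left 2617 outside it, a share of 1.91% (exact 95% Clopper-Pearson interval 1.43 to 2.51%, counting error only). All of these cells carried the hashtag of 1 of 3 male mice. Applied to 1073 cells of 3 female mice in the larger deposited matrix, it found 39 more.

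Dendritic cells take up antigen in tissues and present its peptides on MHC class II to T cells. Conventional dendritic cells depend on the growth factor receptor Flt3 and fall into a cDC1 branch, which needs the transcription factor IRF8 and cross-presents antigen to CD8 T cells, and a cDC2 branch, which relies more on IRF4 and mainly primes CD4 T cells. Mouse cDC2 carry many myeloid receptors that are shared with monocytes and macrophages, among them the C-type lectin Cd209a.

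The animals were naive wild-type BALB/cAnNRj mice, 3 male and 3 female, with no treated group. DRGs were digested with collagenase and dispase, and live CD45+ (pan-leukocyte marker) cells were sorted by flow cytometry. The paper gives the pooling of cervical, thoracic and lumbar DRGs for its flow cytometry samples. Each animal was marked with its own hashtag antibody, all were run together in 1 lane of a droplet 3′ assay, and the mouse is the replicate in every comparison. The cells thus come from 1 lane, and the mice differ in the number of cells recovered (481, 772 and 1415 in male mice 1, 2 and 3). Nothing but the hashtag separates the animals within the lane.

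Limits on a few genes also set 3 other myeloid groups of these animals for comparison. There were 48 cDC1 (*Xcr1* and *Clec9a* at least 2 UMIs together), 77 monocytes (*Plac8* and *Ly6c2* at least 4 UMIs together, with at least 3 of *Lyz2*) and 235 *Ccr2*-positive macrophages (C1q genes at or over 0.5% of UMIs, *Ccr2* at least 2 UMIs and *Fcrls* at most 1) among the male cells. The cDC2 were deeply sampled, with a median of 13188 UMIs and 2977 genes per cell, against 14442.5 UMIs in cDC1, 9814 in monocytes and 8253 in the macrophages. The 51 cells gave 683949 UMIs in all, 248703, 158629 and 276617 in male mice 1, 2 and 3. The smallest sum compared was that of the 5 cDC1 of male mouse 1, 87242 UMIs.

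The *Cd209a* limit left few cells in doubt. Of the male cells, 204 held at least 1 *Cd209a* UMI and 95 held at least 3. The C1q limit removed 40 of those 95 and the *Xcr1* and *Clec9a* limit 4, and the *S100a8* and *S100a9* limit removed 0. Members held a median of 19 *Cd209a* UMIs and at most 77, and 40 of the 51 held 10 or more. Just inside the limit were 5 cells with exactly 3 UMIs, and just outside it 2 cells with 2 UMIs. On the C1q side, 2 members held 0.25 to 0.5% and 4 cells outside held 0.5 to 1%.

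The cDC2 made up 3.53% of the CD45+ cells of male mouse 1 (17 of 481), 1.55% of male mouse 2 (12 of 772) and 1.55% of male mouse 3 (22 of 1415), a mean of 2.21% ± 1.14 (SD, n = 3). In female mice the shares were 3.66% (14 of 382), 3.83% (12 of 313) and 3.44% (13 of 378), a mean of 3.65% ± 0.198 (SD, n = 3). Male mouse 1 lay between female mice 3 and 1, and the other male mice lay below all female mice. The female mean was 1.43 percentage points above the male mean, with p = 0.2 in a two-sided exact permutation test, in which 3 against 3 animals cannot go below p = 0.1. Without male mouse 1 the male mean was 1.55%.

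**Figure D1:**
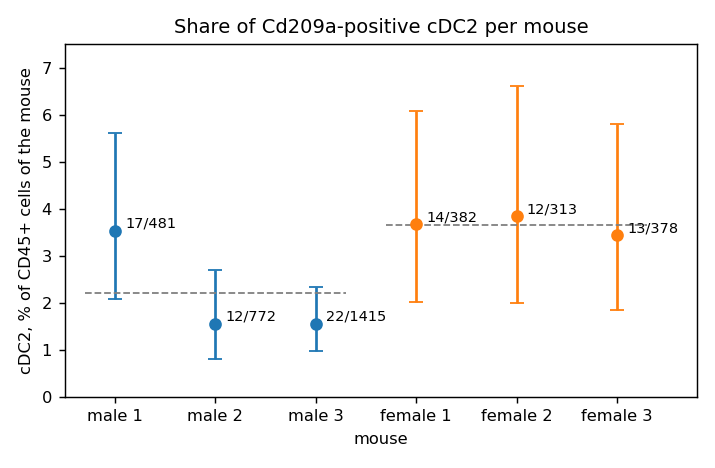
Share of cDC2 among the CD45+ cells of each mouse in percent. Points are mice with cDC2 and all cells as a fraction, bars are exact 95% Clopper-Pearson intervals and dashed lines are the means per sex, 2.21% for male and 3.65% for female mice. Male mouse 1 sits with the female mice and the other male mice lie lower.

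The label of the cells was checked against *Cd209a*, *Flt3*, *Ccl17*, *Kmo*, *Itgax* and *Retnla*, which were given as their markers with results of these data known, so their levels are a description. All levels below are counts per 1e6 UMIs (CPM) in the summed UMIs of a mouse, scaled by the trimmed mean of M values. *Flt3*, the growth factor receptor, stood at 33.7, 44.4 and 27.6 CPM in the cDC2 of male mice 1, 2 and 3, and at 71.2, 122 and 73.3 CPM in cDC1. It reached at most 7.86 CPM in any male monocyte or macrophage sum, below every dendritic cell sum, and the cDC1 sums lay above the cDC2 sums. *Itgax*, which encodes CD11c, stood at 67.4, 63.4 and 62.0 CPM in cDC2, above 59.3, 30.5 and 43.0 CPM in cDC1 and above at most 15.5 CPM elsewhere. In the gene test described below, *Itgax* was not called against cDC1. *Flt3* was called lower there, a call lost without any 1 of the male mice. The cDC2 factor *Irf4* was at 22.5, 31.7 and 41.3 CPM in cDC2 and at most 12.6 CPM in any other male sum. *Zbtb46*, a factor of conventional dendritic cells, was at 3.74, 38.0 and 3.45 CPM in cDC2, which rests on 8 UMIs, and at 17.6 ± 5.47 CPM (SD, n = 3) in cDC1. *Mertk*, a receptor of resident macrophages, had 0 UMIs in the cDC2 of both sexes.

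The other given markers had limits of their own. *Ccl17*, a chemokine that attracts CCR4-bearing T cells, was detected in 12 of 51 cDC2 and in 8 of 48 cDC1, and in 0 of 235 macrophages and 1 of 159 B cells, which show the level of free RNA. The CPM of *Ccl17* in cDC2 was 67.4, 69.7 and 62.0, and in cDC1 0, 262 and 101, so the groups overlapped. *Kmo*, an enzyme of the kynurenine pathway, was detected in 17 of 51 cDC2 and in 15 of 159 B cells. B cells were shallower (median 3410 UMIs), and with every cell thinned to 2000 UMIs the shares were 3.92% of cDC2 and 5.41% of B cells, so that *Kmo* lay at the background at that depth. *Retnla*, a secreted protein linked to IL-4 signalling, had 303 UMIs in the male cDC2, of which 264 came from 1 cell of male mouse 1.

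The cDC2 varied among themselves along *Mgl2* and *Plac8*. *Mgl2*, a galactose-binding C-type lectin, was at 5 or more UMIs in 37 of the 51 male cells and *Plac8*, a gene high in monocytes, in 14, while 1 cell held both and 1 neither. The cells with *Mgl2* held a median of 290 UMIs of *H2-Aa*, an MHC class II chain, and 10 of *Tnip3*, a gene linked to NF-κB signalling. Those with *Plac8* held 52.5 and 0.5. *Cd209a* itself had a median of 29 UMIs in the former and 11.5 in the latter. *Ly6c2*, a surface antigen of classical monocytes, was detected in 10 of the 14 cells with *Plac8* and in 1 other member. These are counts of single cells chosen after their values were seen and carry no test. The cells with *Plac8* were 7 of 17 members in male mouse 1, 0 of 12 in male mouse 2 and 7 of 22 in male mouse 3. In the female mice, 30 of 39 members held *Mgl2* and 4 held *Plac8* at that level. Their medians were 24 and 24.5 UMIs for *Cd209a*, 12 and 8 for *Tnip3* and 272 and 136.5 for *H2-Aa*. The male difference in *Cd209a* was thus not seen in the female cells, and that in *Tnip3* was smaller there.

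**Figure D2:**
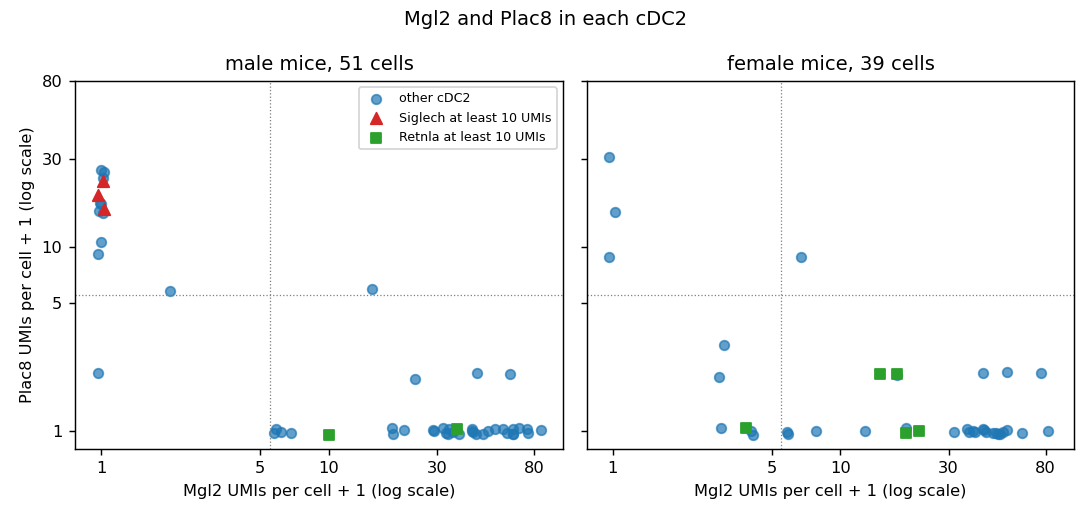
UMIs of *Mgl2* and *Plac8* in each cDC2, plus 1 and on log axes with a small jitter, for male mice (51 cells) and female mice (39 cells). Dotted lines mark 5 UMIs; most cells sit to the right with *Mgl2*, and the 3 male cells with 16 to 32 *Siglech* UMIs sit at the upper left with *Plac8*.

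Among the 14 male cells with *Plac8*, 3 also held 16 to 32 UMIs of *Siglech*, a defining lectin of plasmacytoid dendritic cells, with 13 to 20 UMIs of *Irf8*, 1 to 20 of *H2-Aa* and 0 of *Mgl2*. They met the rule with 3 to 6 *Cd209a* UMIs, and 1 came from male mouse 1 and 2 from male mouse 3. These 3 cells go against the label, and 0 female members were of this kind. The label is also less sure for the other male cells with *Plac8*. Over the 14, the median of *Mgl2* was 0 UMIs, and *H2-Aa* ran from 0, in a cell without *Siglech*, to 200 UMIs. At the other end, 2 male and 5 female members held 10 or more *Retnla* UMIs, and all of them held at least 5 UMIs of *Fcrls*, a gene of resident macrophages, and at least 79 of the lysozyme gene *Lyz2*. Their *Cd209a* counts were 3 and 16 in the male cells and 7 to 12 in the female cells. *Ccr7*, the receptor that guides dendritic cells to lymph nodes, was at 2 or more UMIs in 3 male and 3 female members, and *Mki67*, a proliferation gene, at 5 or more in 2 male members and 0 female members.

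Graph clustering of the male cells placed 38 of the 51 cDC2 in 1 cluster of 98 cells together with 45 of the 48 cDC1. Of the others, 6 fell with 68 of the 77 monocytes, 5 in a mixed cluster led by fibroblast, basophil and proliferation genes, 1 in a cluster with most of the *Ccr2*-positive macrophages and 1 in a cluster led by T and NK cell genes. Doublet calling by Scrublet marked 1 member, among 10 male cells and 51 of all 4395 barcodes (1.16%).

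Transcripts of other cell types in the summed cDC2 were followed by fixed lists. The 13 macrophage markers summed to 1558, 1489 and 2294 CPM in the male cDC2, against 55560 ± 2242 CPM (SD, n = 3) in the macrophages, with *Apoe* the most abundant at 647 CPM and *Mertk* at 0. The 12 monocyte markers summed to 1531, 811 and 1474 CPM against 5715 ± 92.0 CPM in monocytes, with *Ccr2* the most abundant and *Vcan*, *Ace* and *Treml4* at 0. These lists hold genes that chose the groups, the C1q genes for the macrophages and *Plac8* and *Ly6c2* for the monocytes (*Plac8* alone 2275 CPM there), so part of both gaps is fixed by the limits. The lowest monocyte marker sum was that of male mouse 2, the mouse with no *Plac8*-high member. This follows in part from *Plac8* and *Ly6c2* being on the list. The 8 markers of plasmacytoid dendritic cells summed to 801, 177 and 1189 CPM, with *Bst2* the most abundant and male mouse 2 again lowest. *Siglech* is on this list, and the *Siglech*-high members came from male mice 1 and 3 only. *Cd79a* of B cells and *Cd3g*, *Trbc2* and *Trac* of T cells were at 0.

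Genes were compared between cDC2 and each other group by edgeR's quasi-likelihood test on UMIs summed per mouse and group, in 1 fit of 12 sums from the 3 male mice. Genes used by the limits of either group were left out. The 3 comparisons share the cDC2 sums and are therefore not independent of each other. A gene is called at a Benjamini-Hochberg adjusted p below 0.05 over all genes tested.

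Against cDC1, the cDC2 held more of the myeloid surface receptors and of factors such as *Zeb2*, *Cebpb* and *Klf4*, while *Irf8*, *Id2* and most cDC1 markers were lower. Of 3908 genes tested, 581 were called (14.9%), 273 higher in cDC2 (6.99%) and 308 lower (7.88%). In the fit without male mouse 3 the count was 306, and without male mouse 1 it was 372. Of the list of dendritic cell surface receptors, 14 of 19 tested genes were higher in cDC2 and 3 lower, with a median log2 fold change of 2.89 against 0.018 over all genes. The call of *Clec12a*, 1 of the 3, was lost without male mouse 2 and without male mouse 3.

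*Mgl2* (chromosome 11, 70130329 to 70137550, GRCm38) stood at 1468, 2845 and 2070 CPM in the cDC2 of male mice 1, 2 and 3 and at 0, 311 and 7.58 CPM in cDC1. Every cDC2 sum lay above every cDC1 sum, with a log2 fold change of 4.45 ± 0.599 (SE, adjusted p = 2.8e-05). In female mice, fitted on their own, the log2 fold change was 7.72 (adjusted p = 1.58e-08). The neighbouring lectin gene *Clec10a* (chromosome 11, 70156197 to 70170834), also called *Mgl1*, was at 221, 234 and 224 CPM in cDC2 and at 0, 67.1 and 0 CPM in cDC1. The groups did not overlap and the log2 fold change was 3.65 ± 0.643 (SE, adjusted p = 0.000516 by edgeR), but DESeq2 did not call it. *Fcgr3*, a low-affinity IgG receptor, and *Clec4a3*, a lectin of the DCIR family, were higher by log2 fold changes of 4.21 ± 0.390 and 4.47 ± 0.430 (adjusted p = 2.84e-07 and 4.48e-07). *Itgam*, which encodes CD11b, and *Sirpa*, the CD47 receptor, are the usual surface markers of cDC2 and were higher by 3.40 ± 0.463 and 3.21 ± 0.450 (adjusted p = 3.17e-05 and 4.44e-05). On the cDC1 side, *Ly75*, the endocytic receptor DEC-205, had 1 UMI in all male cDC2 and 47 in cDC1.

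Among the genes of largest fold over cDC1 were secreted factors. *Ccl9*, a chemokine and ligand of CCR1, stood at 378, 330 and 462 CPM in cDC2 and at 0, 0 and 2.53 CPM in cDC1. With 287 UMIs against 1, the ratio was 293 (interval 52.2 to 11630, counting error only, adjusted p = 1.8e-09). *Ccr1*, its receptor, had 119 UMIs against 1, a ratio of 122 (21.4 to 4845, adjusted p = 0.000164). *Hacd4*, an enzyme of very long chain fatty acid synthesis, had 57 UMIs against 0 and was at least 19.4-fold higher, computed against a floor of 3 counts over the group. *Retnla* and *Lpl*, lipoprotein lipase, each had 0 UMIs in cDC1 and were at least 103-fold and 33.4-fold higher, but both were highest in male mouse 1 (988 CPM against 57.0 and 103 CPM in the others for *Retnla*, 311 against 25.4 and 37.9 CPM for *Lpl*). Of the 303 *Retnla* UMIs, 264 came from 1 cell of male mouse 1, so its bound rests mostly on that cell. *Sirpb1b* and *Sirpb1c* were also higher, with 23 and 25 UMIs against 0. They are near-identical paralogs between which reads can be split. Of 7 chemokine receptors tested, 3 were higher, among them *Ccr1* and *Ccr2*, where 6.99% of all genes were. *Cxcr3*, a receptor for interferon-induced chemokines, was lower, with 0 UMIs in cDC2 and 28 in cDC1 (at least 9.13-fold). It was the only 1 of the 7 called lower, where 7.88% of all genes were.

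Of 18 transcription factors tested, 4 were higher in cDC2 and 2 lower, a median of 0.0319. Of all genes, 6.99% were higher and 7.88% lower, and 2 of 18 lies near that share. The call of *Klf4* was lost without male mouse 1. *Irf8*, on which cDC1 depend, stood at 124, 25.4 and 107 CPM in cDC2 and at 913, 897 and 741 CPM in cDC1, so the groups were far apart (log2 fold change -3.17 ± 0.280, adjusted p = 1.6e-07). Of the 68 *Irf8* UMIs in the male cDC2, 47 came from the 3 cells with *Siglech*. *Zeb2*, a repressor active in the cDC2 and monocyte lines, was at 217, 209 and 331 CPM in cDC2 and at 0, 0 and 25.3 CPM in cDC1 (4.08 ± 0.424, adjusted p = 1.19e-06). *Cebpb*, a myeloid factor, was higher by 3.05 ± 0.197 (adjusted p = 3.22e-09). *Id2*, an inhibitor of E proteins needed by cDC1, was the other factor called lower. Both factors shared with cDC1, *Batf3* (97.3, 171 and 107 CPM in cDC2, 178, 116 and 109 CPM in cDC1) and *Runx3* (131, 152 and 124 against 119, 122 and 159 CPM), had overlapping groups and were not called.

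Of 9 cDC1 markers tested, 8 were lower in cDC2. *Gcsam*, a signalling adaptor, had 0 UMIs in cDC2 and 59 in cDC1 (at least 19.2-fold lower), and the lysosomal enzyme *Ppt1* stood at 97.3, 82.4 and 89.6 CPM against 1317, 1134 and 1254 CPM (-3.75 ± 0.259, adjusted p = 5.83e-09). *Tlr3*, a sensor of double-stranded RNA that cDC1 use, and *Itgae*, the integrin CD103, were lower by log2 fold changes of -3.53 ± 0.686 and -4.00 ± 0.695 (adjusted p = 0.00116 and 0.000595). *Itgae* in cDC2 came from male mouse 2 alone (0, 44.4 and 0 CPM), and DESeq2 called neither *Itgae* (adjusted p = 0.520) nor *Gcsam*. *Naaa*, a lysosomal amidase, was lower than in cDC1 (142, 418 and 134 against 949, 1086 and 925 CPM) and was the most abundant of the 12 listed cDC1 markers in the male cDC2. Of 13 MHC class II genes tested, 1 was higher (*Ctss*, a protease that frees the class II groove, 1.35 ± 0.156) and 1 lower (*Cst3*, its inhibitor, -0.76 ± 0.213, a call lost without male mouse 1 and without male mouse 3), near the shares of all genes called (6.99% and 7.88%). *H2-Aa* stood at 14970, 20440 and 15520 CPM in cDC2 and at 14200, 18660 and 17920 CPM in cDC1, with overlapping groups (0.02 ± 0.259, adjusted p = 0.989).

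**Figure D3:**
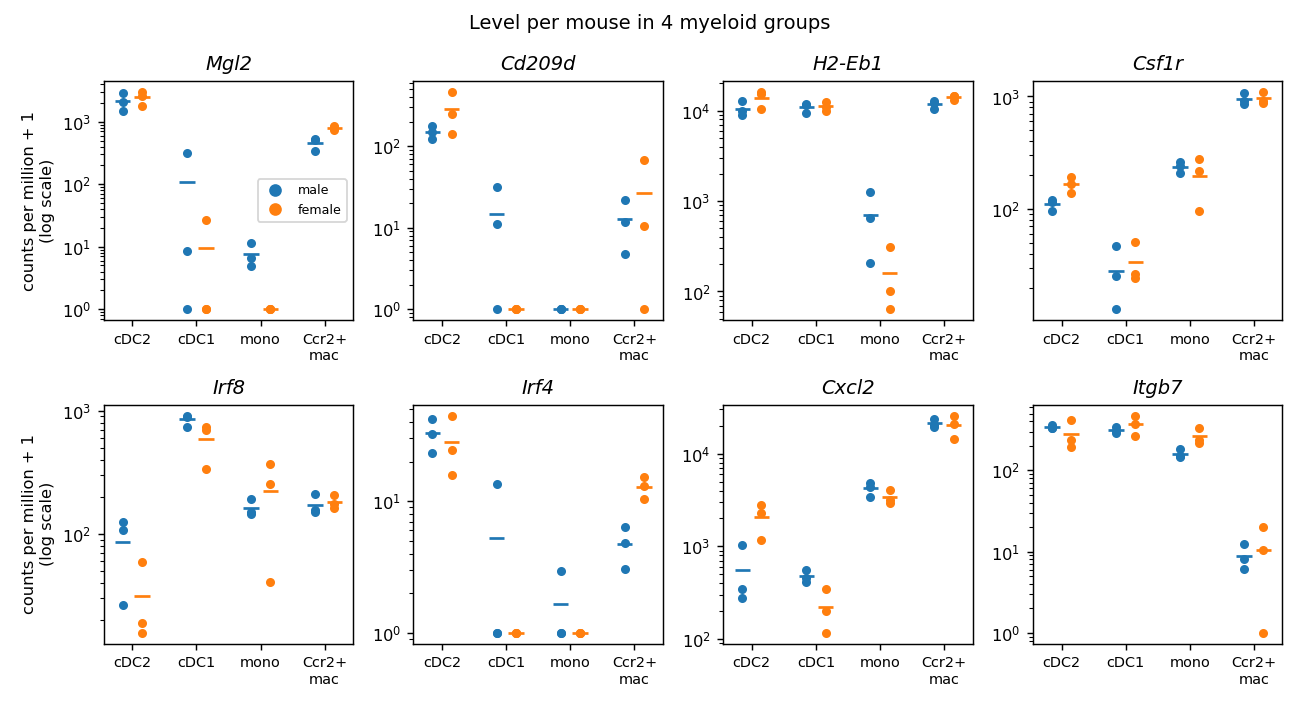
Level of 8 genes in CPM plus 1 on a log axis in cDC2, cDC1, monocytes (mono) and *Ccr2*-positive macrophages (Ccr2+ mac). Points are mice, blue male and orange female, and short lines are means of 3 mice. *Mgl2*, *Cd209d* and *Irf4* are highest in cDC2, *H2-Eb1* is low in monocytes alone, and *Itgb7* is low in the macrophages alone.

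Against monocytes, most MHC class II genes tested were higher in cDC2, and *Cebpb* and several chemokine and pattern recognition genes were lower. Of 3904 genes tested, 699 were called (17.9%), 351 higher in cDC2 (8.99%) and 348 lower (8.91%), and without male mouse 3 the count was 387. Of 13 MHC class II genes tested, 10 were higher in cDC2 and 0 lower, with a median log2 fold change of 3.22 against 0.015 over all genes. *H2-Eb1*, a class II beta chain (chromosome 17, 34305867 to 34316674), stood at 8821, 12660 and 9880 CPM in cDC2 and at 206, 1243 and 641 CPM in monocytes. The groups were apart by 3.90 ± 0.339 (SE, log2, adjusted p = 1.06e-07), and the female mice gave 6.13 (adjusted p = 1.02e-09). *Cd74*, the invariant chain, was higher by 3.46 ± 0.224 (adjusted p = 1.82e-09), and *Ciita*, the class II transactivator, by 2.83 ± 0.492 (adjusted p = 0.000321), while the female value for *Ciita* was 0.57 (adjusted p = 0.728). *H2-Oa*, a modulator of peptide loading, had 41 UMIs in cDC2 and 1 in monocytes, a ratio of 45.8 (interval 7.78 to 1853).

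*Cd209d*, a paralog of *Cd209a* (chromosome 8, 3871824 to 3878555, minus strand, GRCm38), had the largest fitted fold change over monocytes of all genes called. It stood at 176, 120 and 148 CPM in cDC2 and had 0 UMIs in monocytes, at least 40.6-fold higher (109 UMIs against a floor of 3, adjusted p = 1.28e-06). Against cDC1 (0, 30.5 and 10.1 CPM) and macrophages (3.81, 10.8 and 20.7 CPM) the groups did not overlap either. *Cd209a* and *Cd209d* are paralogs, and reads could be shared between them. Both promoters are shown because both genes were highest in cDC2 of the 4 groups, for *Cd209a* by the rule itself. The stretches are RefSeq sequence of GRCm38.p6 on the minus strand, written 5′ to 3′, at chr8:3748975-3749094 and chr8:3878554-3878609. Capitals mark a match to the composite element of ETS and IRF factors (GGAA, any 2 bases, then GAAA), which lies here on the other strand.
Cd209a: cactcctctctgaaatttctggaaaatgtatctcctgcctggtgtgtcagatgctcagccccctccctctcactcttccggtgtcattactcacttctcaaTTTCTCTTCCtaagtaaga
Cd209d: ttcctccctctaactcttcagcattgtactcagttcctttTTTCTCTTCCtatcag
The match begins 9 bases before the RefSeq start of *Cd209a* and 70 before that of *Cd209d*. The RefSeq start of *Cd209d*, 3878499, lies inside the GENCODE gene given above, from whose start at 3878555 the match begins 14 bases away. Both strands were searched from 250 bases before to 50 after each start, and 853 of 27025 genes (3.16%) held a match, among them 3 of 7 *Cd209* genes (*Cd209a*, *Cd209d* and *Cd209e*). A match was held by 5.09% of genes called higher in cDC2 than in cDC1, 2.56% of those higher than in monocytes and 3.09% of those higher than in macrophages. Of genes called lower, 2.85%, 4.74% and 4.07% held one, and of all genes tested 3.01 to 3.02%. No test was run on these shares. A match is a description of letters and not a binding site.

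Other lectins went both ways against monocytes. *Mgl2* was at 5.57, 10.4 and 3.93 CPM in monocytes (log2 fold change 8.43 ± 0.837, adjusted p = 4.87e-07), and *Clec4b1*, a lectin of the DCAR family, was at 292, 399 and 320 CPM in cDC2 and at 22.3, 36.3 and 27.5 CPM in monocytes (3.52 ± 0.318, adjusted p = 1.64e-07). Of 19 surface receptors tested, 8 were higher and 4 lower, a median of 0.21, where 8.99% and 8.91% of all genes were. Of these calls, *Cd24a* was lost without any 1 of the male mice, *Dpp4* without male mouse 3, *Cd300a* (lower) without male mouse 2 and *Clec10a* in DESeq2. The lectins *Clec4a1* and *Clec4a3*, of the DCIR family, were among the lower ones (-2.10 ± 0.335 and -1.30 ± 0.208, adjusted p = 0.000125 and 0.000126). *Fcgr1*, the high-affinity IgG receptor CD64, was lower too, at 33.7, 44.4 and 51.7 CPM in cDC2 and at 106, 124 and 142 CPM in monocytes (-1.56 ± 0.346, adjusted p = 0.00287). *Slamf9*, a receptor of the SLAM family, had 140 UMIs against 3, a ratio of 52.2 (17.5 to 256). *Wnt11*, a secreted Wnt ligand, *Hepacam2*, an adhesion molecule, and *Epcam*, an adhesion molecule of epithelia and some dendritic cells, had 0 UMIs in monocytes and were at least 18.2-fold, 16.8-fold and 6.33-fold higher. *Ccr7* was also at 0 UMIs in monocytes (at least 14.9-fold higher), with 101, 6.34 and 41.3 CPM in cDC2. The call of *Ccr7* was lost without male mouse 1 and without male mouse 3, and that of *Epcam* without male mouse 1, and DESeq2 did not call *Ccr7* and *Wnt11*.

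Of genes lower than in monocytes, *Thbs1*, which encodes the matrix protein thrombospondin 1, had 0 UMIs in cDC2 and 434, 238 and 389 CPM in monocytes (at least 96.0-fold lower). The complement component *C3*, the coagulation factor *F10* and the granulocyte antigen *Cd177* were likewise at 0 UMIs in cDC2, at least 41.2-fold, 31.0-fold and 25.4-fold lower, though DESeq2 did not call *Cd177*. *Chil3*, a chitinase-like protein of monocytes and alternatively activated macrophages, had 2 UMIs against 295, a ratio of 0.00758 (0.000913 to 0.0276). *Hp*, haptoglobin, stood at 3.74, 0 and 13.8 CPM against 858, 622 and 827 CPM (-6.73 ± 0.400, adjusted p = 1.49e-09). *Dcn*, a matrix proteoglycan of fibroblasts, was called lower as well, but in monocytes it stood at 11.1, 10.4 and 1452 CPM and thus rests on male mouse 3. The 5 fibroblast markers there summed to 1926 CPM, and their part in the result was not tested.

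Of 19 cytokines and chemokines tested against monocytes, 1 was higher (*Cxcl16*, a ligand of CXCR6) and 6 lower, a median of -0.192. Of all genes, 8.99% were higher in cDC2 than in monocytes and 8.91% lower. The calls of *Cxcl10* and *Ccl2* were lost without male mouse 3 and that of *Ccl6* without male mouse 2. *Cxcl2*, a chemokine for neutrophils, stood at 273, 342 and 1040 CPM in cDC2 and at 4857, 4381 and 3431 CPM in monocytes (-2.91 ± 0.310, adjusted p = 1.26e-06). Of 18 transcription factors, *Batf3*, *Nr4a3* and *Runx3* were higher and 4 lower, among them *Cebpb* and *Nfil3*, a median of 0.121. The calls of *Batf3* and *Runx3* were lost without male mouse 1 and without male mouse 3, and that of *Nr4a3* without male mouse 3. Pattern recognition genes were lower in 4 of 8 tested and higher in 0, a median of -1.11, but the calls of *Ly96* and *Tlr13* were lost without male mouse 1 and that of *Tlr7* without male mouse 2 and in DESeq2. *Cebpb* was at 869, 748 and 972 CPM in cDC2 and at 4656, 4511 and 3686 CPM in monocytes, and thus lay between cDC1 and monocytes with no overlap on either side. *Csf1r*, the receptor for macrophage colony-stimulating factor, was likewise in between, at 120, 95.1 and 114 CPM against 11.9, 24.4 and 45.5 CPM in cDC1 and 240, 259 and 208 CPM in monocytes (1.69 ± 0.313 and -1.07 ± 0.223, adjusted p = 0.000786 and 0.00172). Proliferation genes were higher in 4 of 7 tested and lower in 0, but *Mki67* stood at 71.1, 0 and 62.0 CPM in cDC2. Without male mouse 1, the calls of *Mki67*, *Top2a*, *Birc5* and *Tubb5* were all lost, so the count of 4 rests on that mouse, and DESeq2 did not call the first 3 of them.

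Against *Ccr2*-positive macrophages, most of the cytokine, chemokine and macrophage marker genes tested were lower in cDC2. Of 3906 genes tested, 896 were called (22.9%), 414 higher in cDC2 (10.6%) and 482 lower (12.3%), and without male mouse 3 the count was 507. Of 19 cytokines and chemokines tested, 13 were lower in cDC2 and 0 higher, with a median log2 fold change of -1.37 against 0.008 over all genes. The calls of *Cxcl10* and *Osm* were lost without male mouse 2, without male mouse 3 and in DESeq2, and that of *Il1b* without male mouse 1. *Cxcl2* was at 23720, 20610 and 19210 CPM in the macrophages, far above the cDC2 (-5.22 ± 0.335, adjusted p = 6.84e-10). *Cxcl1*, which shares its receptor, was at 71.1, 57.0 and 186 CPM in cDC2 and at 5899, 4418 and 4171 CPM (-5.42 ± 0.283, adjusted p = 4.31e-11). *Ccl3* and *Ccl12*, chemokines for monocytes and T cells, were lower by -5.34 ± 0.331 and -5.44 ± 0.476 (adjusted p = 4.88e-10 and 3.83e-08). *Tnf* was lower by -1.31 ± 0.302 (adjusted p = 0.0028), at 124, 165 and 58.6 CPM against 267, 323 and 235 CPM. Of 13 MHC class II genes tested, 2 were higher (*H2-Oa* and *H2-DMb2*) and 2 lower, the proteases *Ctss* and *Lgmn* (-1.03 ± 0.144 and -3.08 ± 0.292, adjusted p = 1.83e-05 and 1.09e-07). The call of *H2-DMb2* was lost without male mouse 3, and its female value was 0.51 (adjusted p = 0.231 by edgeR).

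Of 18 dissociation and immediate early genes, which respond to tissue digestion, 9 were lower in cDC2 than in the macrophages, 0 higher and 9 not called, a median of -0.743. Of all genes tested there, 12.3% were lower. The call of *Jund* was lost without male mouse 2. *Rhob*, a small GTPase, was at 26.2, 38.0 and 44.8 CPM against 305, 362 and 266 CPM, and *Egr1*, an immediate early factor, was lower by -2.27 ± 0.329 (adjusted p = 2.73e-05). Against monocytes 5 of these 18 genes were higher in cDC2 and 1 lower (median 0.36), where 8.99% and 8.91% of all genes were. Of 19 cytokines, 1 was higher there and 6 lower (median -0.192). Against cDC1 6 of the 18 were higher and 1 lower (median -0.0696), where 6.99% and 7.88% of all genes were. In both comparisons, 1 of 18 lower lies near the share of all genes. Without male mouse 1, the calls of *Atf3*, *Fosb*, *Hspa1b* and *Fos* against monocytes and of *Jun*, *Rhob*, *Hspa1b* and *Hspa1a* against cDC1 were lost. Against monocytes this left only *Btg2* and *Jund* of the calls. The part of the dissociation genes in the cytokine levels was not tested.

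**Figure D4:**
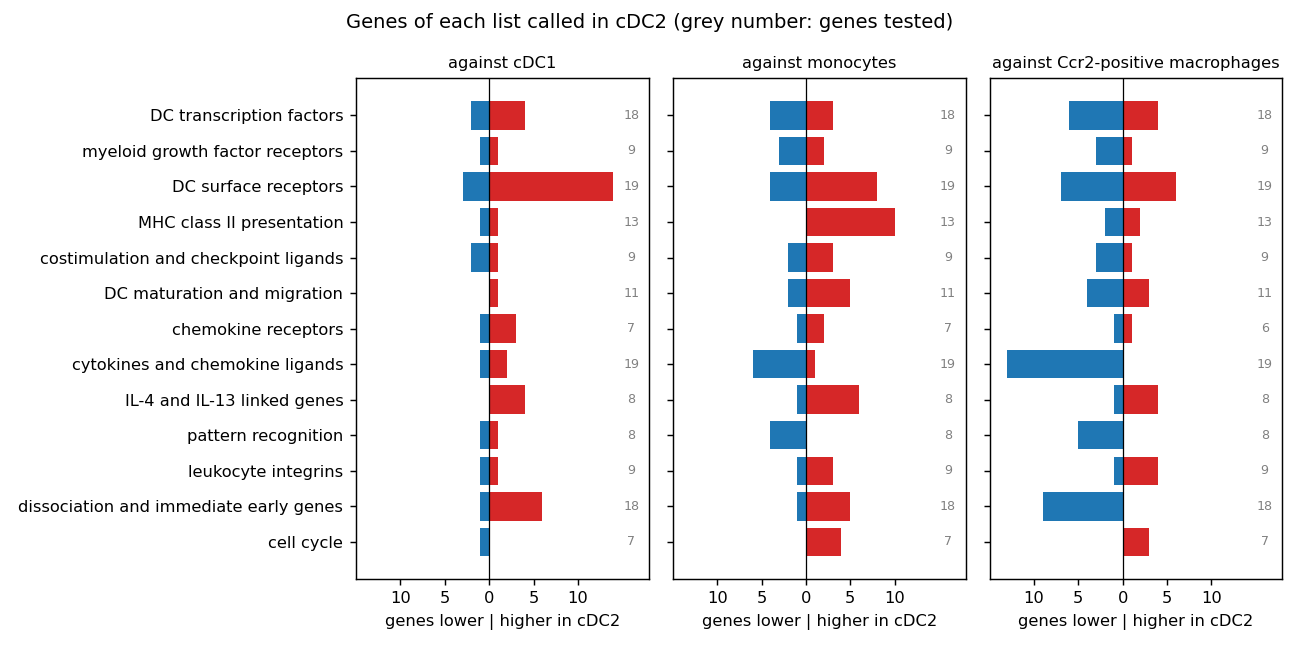
Number of genes of each fixed list called higher (red, right) or lower (blue, left) in cDC2 against each group in male mice. Grey numbers give the genes tested in the list. Surface receptors are mostly higher than in cDC1 (14 of 19), MHC class II genes higher than in monocytes (10 of 13) and cytokines lower than in macrophages (13 of 19).

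Of 8 macrophage markers tested, 7 were lower in cDC2 than in the macrophages, where 12.3% of all genes were. *Csf1r* stood at 1078, 915 and 850 CPM there (-3.07 ± 0.205, adjusted p = 8.89e-10) and *Fcgr1* at 270, 289 and 398 CPM (-2.89 ± 0.302, adjusted p = 4.25e-07). *Pf4*, a chemokine of platelets and resident macrophages, was at 11.2, 12.7 and 41.3 CPM in cDC2 and at 1509, 1347 and 998 CPM. *Cd36*, a scavenger receptor, had 1 UMI against 283, a ratio of 0.0103 (0.000259 to 0.0576), and *Gas6*, a ligand that bridges dying cells to TAM receptors, 1 against 291. *Folr2*, a folate receptor of resident macrophages, and *Col14a1*, a fibril-associated collagen, had 0 UMIs in cDC2 and were at least 14.1-fold and 15.4-fold lower. *C5ar1*, the receptor for complement C5a, had 2 against 642. Pattern recognition genes were lower in 5 of 8 tested and higher in 0, with *Cd14*, the co-receptor for lipopolysaccharide, at 1299, 957 and 1395 CPM against 6333, 6368 and 5311 CPM (-2.28 ± 0.179, adjusted p = 8.29e-09).

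Genes higher in cDC2 than in the macrophages included a protease, an integrin chain and lipid receptors. *Napsa*, an aspartic protease (chromosome 7, 44572380 to 44586862), stood at 719, 970 and 820 CPM in cDC2 and at 15.2, 10.8 and 14.5 CPM in the macrophages (5.92 ± 0.259, adjusted p = 4.69e-12). *Itgb7*, an integrin chain for homing to the gut, was at 356, 336 and 334 CPM against 11.4, 7.18 and 5.17 CPM (5.58 ± 0.263, adjusted p = 9.51e-12), with no overlap in either gene. *Ltb4r1*, the leukotriene B4 receptor, had 153 UMIs against 3, a ratio of 148 (49.7 to 726). *P2ry10*, a lysophospholipid receptor, and *H2-Oa* had 0 UMIs in the macrophages and were at least 43.5-fold and 39.7-fold higher, and *Wnt11* and *Ccl17* at least 47.4-fold and 45.5-fold, with *Wnt11* not called by DESeq2. *Bcl11a*, a factor of dendritic and lymphoid progenitors, had 51 UMIs against 1. *Dpp4*, a peptidase that is also known as CD26, had 40 against 2, and *Mgl2*, also high in the macrophages (526, 510 and 335 CPM), was higher in cDC2 by 2.24 ± 0.463 (adjusted p = 0.00114), a call that DESeq2 did not make (adjusted p = 0.225).

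Genes linked to IL-4 and IL-13 were higher in 4 of 8 tested against cDC1 (median 1.79), 6 of 8 against monocytes (median 3.34) and 4 of 8 against macrophages (median 1.07), with 0, 1 and 1 lower. *Mgl2*, *Clec10a* and *Retnla* were among those higher in each, and part of this list is shared with the surface receptors and the given markers. DESeq2 did not call *Clec10a* against cDC1 or monocytes, nor *Mgl2* against macrophages. Of the 303 male *Retnla* UMIs in cDC2, 264 came from 1 cell. The shares of all genes called higher and lower were 6.99% and 7.88% against cDC1, 8.99% and 8.91% against monocytes and 10.6% and 12.3% against macrophages. Of 9 costimulatory and checkpoint ligands, 1 was higher and 2 lower against cDC1, 3 and 2 against monocytes and 1 and 3 against macrophages, and 1 of 9 lies near those shares. Of 11 genes of maturation and migration, 1 was higher and 0 lower against cDC1, 5 and 2 against monocytes and 3 and 4 against macrophages, where 1 of 11 likewise lies near the share of all genes. Calls in these 3 lists lost when 1 male mouse was left out were *Tnfsf9* and *Cd86* against cDC1, *Il4ra*, *Tmem123*, *Ccr7*, *Samsn1* and *Anxa3* against monocytes and *Cd48*, *Ccr7* and *Birc3* against macrophages.

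*Il7r*, the IL-7 receptor chain, was the only gene tested of the T, NK and innate lymphoid cell list. It stood at 37.4, 44.4 and 65.5 CPM in cDC2 and was higher than in cDC1, monocytes and macrophages by 4.71 ± 0.901, 5.04 ± 0.856 and 3.75 ± 0.596 (adjusted p = 0.00102, 0.000242 and 7.96e-05), with *Cd3g*, *Trbc2*, *Trac*, *Klrb1c* and *Ncr1* of the 10 listed genes at 0. *Cd3e* had 4 UMIs in the male cDC2, *Gata3* 6, *Gzma* 2 and *Nkg7* 1, and 1 member lay in the cluster led by T and NK cell genes. Their part in the *Il7r* level was not tested. *Tnip3*, chosen after its values were seen, was at 580, 868 and 789 CPM in cDC2 and higher in each comparison, by 2.42 ± 0.317 against cDC1, 4.80 ± 0.384 against monocytes and 1.47 ± 0.264 against macrophages (adjusted p = 2.02e-05, 3.98e-08 and 0.000289). *Zbtb46*, *Irf4* and *Mertk* did not pass the filter on low counts in any comparison and have no test. Of the 11 kynurenine pathway genes, only *Ahr*, a receptor for kynurenine, was tested, and it was lower than in cDC1 (-1.74 ± 0.423, adjusted p = 0.00692) with overlapping groups, a call lost without male mouse 3. *Ido1*, which starts the pathway, had 0 UMIs in the cDC2 of both sexes.

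The female mice were not among the cells the rule was made on and were fitted on their own. Of the 581 genes called against cDC1 in male mice, 459 could be tested there, 451 had the same sign (98.3%), 279 were called with that sign (60.8%) and 0 with the opposite one. Female mice on their own gave 377 calls of 2129 genes (17.7%). Against monocytes, 513 of 699 were tested, 488 kept the sign (95.1%) and 239 were called (46.6%), with 336 calls of 2125 genes in all (15.8%) from 14 female monocytes. Against macrophages, 632 of 896 were tested, 615 kept the sign (97.3%) and 373 were called (59.0%), with 438 calls of 2127 genes in all (20.6%). By direction, the female calls were 8.36% higher and 9.35% lower of the genes tested against cDC1, 8.89% and 6.92% against monocytes and 9.87% and 10.7% against macrophages.

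**Figure D5:**
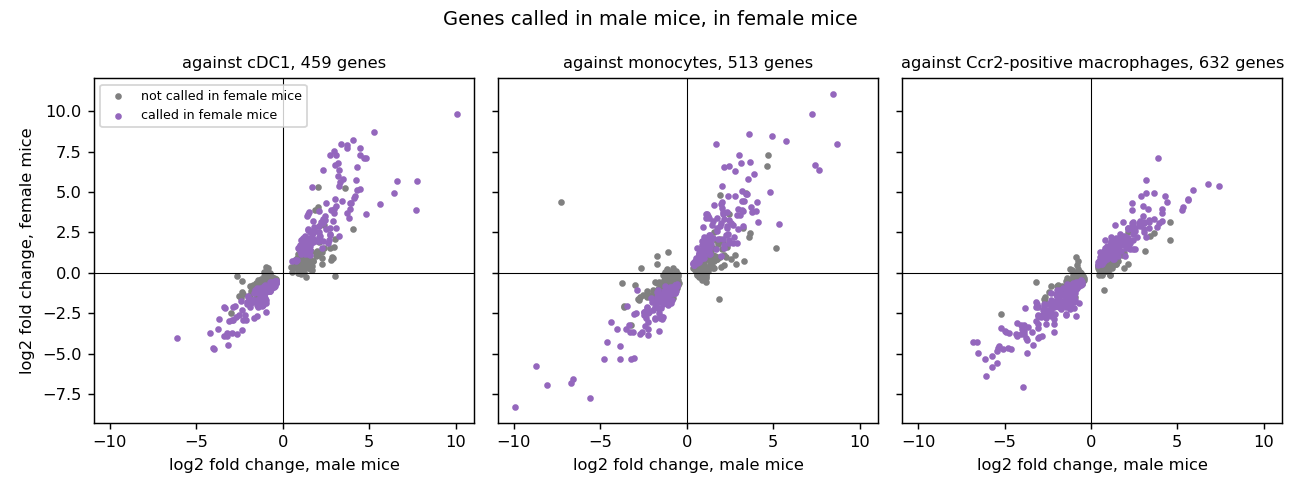
Log2 fold change of cDC2 against each group in female mice (vertical) and male mice (horizontal), for genes called in male mice and tested in both. Purple points are also called in female mice. Of 459, 513 and 632 genes, 451, 488 and 615 lie in the quadrants of equal sign.

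Female and male cDC2 differed in few genes. Of 3437 genes tested in 1 fit of 6 mice, 3 were higher in female cDC2 (0.0873%) and 2 lower (0.0582%), and 228 had an unadjusted p below 0.05. *Xist* was higher (9.90 ± 0.572) and the Y-linked *Ddx3y* and *Eif2s3y* were lower (-6.53 ± 0.996 and -6.62 ± 1.05), as the hashtag labels had it. *Cxcl2* stood at 2792, 1170 and 2276 CPM in female and at 273, 342 and 1040 CPM in male cDC2 (1.71 ± 0.334, adjusted p = 0.0173), where male mouse 3 approached female mouse 2. The interaction of sex with cDC2 against cDC1 and against macrophages gave 0 calls by edgeR (172 and 144 genes with an unadjusted p below 0.05), and that with cDC2 against monocytes 1 call (0.0291% of genes tested, with 236 at an unadjusted p below 0.05).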

How the data were processed

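The data were 1 droplet 3′ gene expression library and its hashtag library from sorted CD45+ DRG cells. The authors aligned reads to mm10 with Cell Ranger (3.1.0, per the file headers) and deposited whole-number UMI counts per gene and barcode. A matrix of male cells and a larger one of 4395 barcodes were used. Cells with 200 to 5000 genes and under 5% mitochondrial counts were assigned to hashtags with HTODemux (Seurat 5.3.0, quantile 0.99). The cells of the smaller matrix were those with a male hashtag, and the 1073 with a female hashtag were added. Doublets by hashtag were left out. The 4 groups were set by limits on few genes, raw counts were summed per mouse and group, and edgeR 4.0.16 (quasi-likelihood, TMM, filterByExpr) was fitted to 12 sums. P-values measure the spread between mice. DESeq2 1.42.0 served as an alternative.

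The members and gene lists were chosen with earlier results of these data known. Named genes were the given markers, the called genes of largest fold per list (2 to 4) and comparison (10 per direction), and defining genes of neighbouring types. *Sirpa*, *Itgam*, *H2-Aa*, *Ciita*, *Tnf*, *Id2*, *Batf3*, *Runx3*, *Naaa*, *Il7r*, *Ido1* and *Tnip3* were chosen after their values were seen. A hashtag marks 1 animal, so groups are paired by mouse. Deviations of same-mouse sums from their group means correlated between -0.0145 and 0.0618 and those of different mice between -0.0954 and 0.0662. Gene coordinates are from GENCODE M21 (GRCm38). Fitting was tested on simulated data. A few genes are not reported here.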

Additional observations from a re-analysis of the deposited data

Results flagged for a closer look

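Among 269 barcodes that carried more than 1 hashtag and entered no comparison, 8 met the rule for cDC2 (2.97%), while 0 of 101 barcodes without a hashtag did.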

How the results depend on the processing

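With each cell thinned to 2000 UMIs, 113 of 701 genes tested were called against cDC1, 164 of 698 against monocytes and 210 of 700 against macrophages. Leaving out male mouse 1, 2 or 3 in turn gave 306 to 389 calls against cDC1, 387 to 526 against monocytes and 507 to 722 against macrophages, lowest without male mouse 3 each time, and shares of cDC2 of 1.55 to 2.54%.

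*Ccr7* against cDC1 (-1.12, not called) ranged from -2.38 to 0.70 when 1 male mouse was left out and turned to 0.70 without male mouse 2. Without members of 5 or more *Plac8* UMIs, an alternative added after seeing the data, *Ly6c2* turned to -3.28 against cDC1 and -1.26 against macrophages, and the members left out held 48 of its 49 UMIs. The other alternatives left the counts within 1.5 times of the values given. They were RLE size factors, DESeq2, no filter on low counts, other limits on *Cd209a*, C1q and the compared group, no Scrublet doublets, a fit of the 2 groups alone and, also added later, leaving out members with *Siglech* or *Retnla*. DESeq2 called 440, 537 and 671 genes. With the mouse as a replicate block the counts were 579, 717 and 917, and none of the named genes recomputed under the alternatives changed its call. Calls lost in DESeq2 included *Clec10a*, *Gcsam* and *Itgae* against cDC1, *Clec10a*, *Cd177*, *Ccr7*, *Wnt11* and *Mki67* against monocytes and *Mgl2* and *Wnt11* against macrophages. The cause was not tested. The depth limits what can be said of *Zbtb46*, *Irf4* and *Kmo*.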
